A study of Homo sapiens with 8 samples.

Results

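Among 8 RNA-seq libraries labelled as HSC3, 2 held large amounts of salivary gland transcripts: the library labelled knockdown 2 and the library labelled control 1. They were chosen by their measured level of MUC5B, the gel-forming mucin of mucous glands, which had to reach 1000 CPM (a gene's count scaled to the total of its library), and they are called gland-rich here. MUC5B stood at 60244 CPM in knockdown 2 and at 3948 CPM in control 1. In the other 6 libraries it lay between 0.519 and 3.43 CPM, so the library just inside the rule and the one just outside it were far apart. MUC5B chose these libraries, and what separates them from the other 6 is therefore given as description, with no test.

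HSC3 is an established human oral squamous carcinoma line. By the labels, cells of both groups were transfected with 100 pmol of siRNA using a lipid reagent and collected after 48 hours. In the 4 knockdown libraries the siRNA targeted COL1A1, the alpha-1 chain of type I collagen, and in the 4 control libraries it was the negative control si-NC. Whether the libraries of a label are separate cultures is not stated, and a p-value here covers just the spread among these libraries, which may be technical. Each gland-rich library is the only one under its label, and their differences from each other have no replicate check.

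Salivary glands release saliva from acini, small sacs of secretory cells. Mucous acini make heavily glycosylated mucins, serous acini make watery protein secretions with antimicrobial enzymes, and ducts modify the fluid and carry immunoglobulin A (IgA) from nearby plasma cells across the epithelium. Minor glands lie throughout the oral lining, von Ebner glands are serous glands of the tongue, and the parotid, submandibular and sublingual glands are the major glands.

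Total counts were 30684584 in knockdown 2, the lowest of the 8 libraries, and 36786421 in control 1. The highest was 61795990, in control 2. COL1A1, the siRNA target, stood at 368, 123, 301 and 155 CPM in knockdown 1 to 4 and at 88.9, 8183, 476 and 689 CPM in control 1 to 4. The 2 gland-rich libraries had the lowest COL1A1 of all 8, with control 1 the lowest. Over the 12474 genes that reached 10 CPM in any library, the Spearman correlation across genes was 0.86 between the gland-rich libraries. It ran from 0.518 to 0.795 between a gland-rich library and any other, and from 0.621 to 0.912 among the other 6. Each gland-rich library was thus most like the other one, under the opposite label.

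The gland genes were grouped into 3 lists: 24 mucous genes, 28 serous genes and 22 genes typical of the major glands. Together these 74 genes took 15.2% of counts in knockdown 2 (Wilson 95% interval 15.16 to 15.18) and 21.8% in control 1 (21.82 to 21.85). In the other 6 libraries they took 0.0321% at the lowest, 0.0959% at the median and 0.157% at the highest. The intervals cover counting error only. In bulk RNA, more cells of a type and more RNA per cell cannot be told apart.

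The total hides a large difference in kind. Mucous genes took 7.45% of counts in knockdown 2 and 0.456% in control 1, 16.4 times as much in knockdown 2. Serous genes took 6.43% and 20.1%, 3.12 times as much in control 1. Genes of the major glands took nearly equal shares, 1.29% and 1.30%, made up of different genes, as described further on. Of all gland list counts, 49.1% were mucous in knockdown 2 and 2.09% in control 1, while 42.4% and 92.0% were serous. The serous to mucous ratio of counts was 0.863 in knockdown 2 and 44.1 in control 1.

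**Figure D1:**
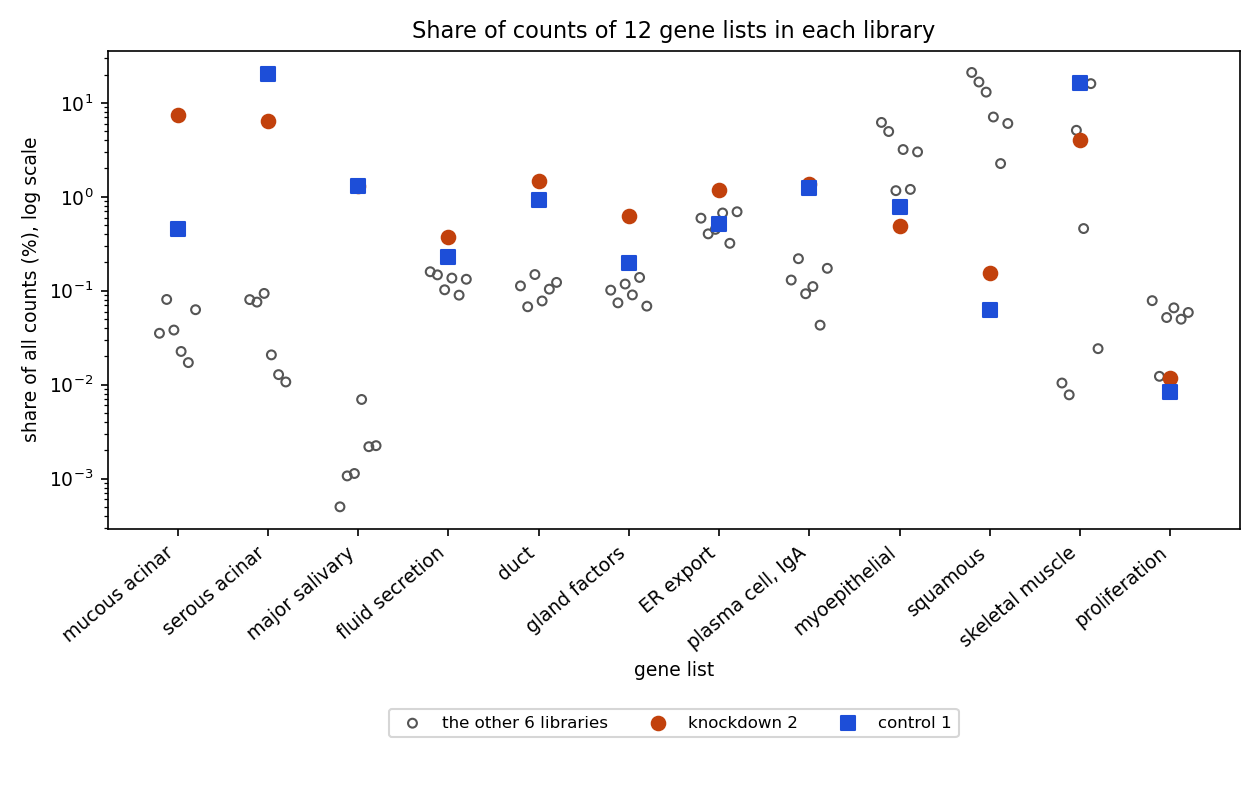
Share of all counts (%, log axis) of 12 gene lists in each library, with knockdown 2 as filled circles, control 1 as filled squares and the other 6 libraries as open circles. Both gland-rich libraries lie above the other 6 for the gland, duct and plasma cell lists and below them for the squamous list. PIGR, at 11004 CPM in knockdown 2 and 7707 CPM in control 1, is in both the duct and the plasma cell list. It makes up most of the counts of both lists in these libraries, so these 2 shares say little about the other members.

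**Figure D2:**
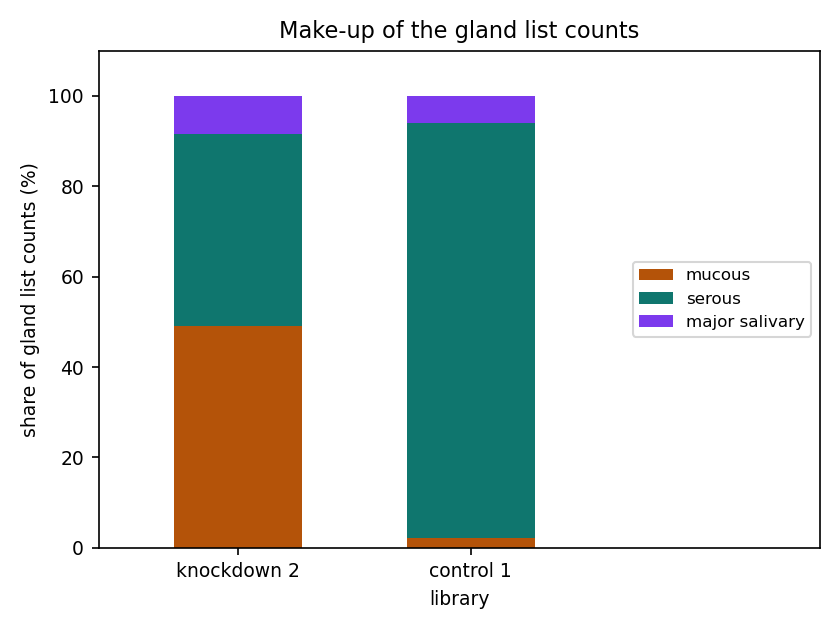
Make-up of the counts of the 74 gland list genes in each gland-rich library, in percent of those counts. Mucous genes make up 49.1% in knockdown 2 and 2.09% in control 1.

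The upstream sequences of genes on which these contrasts turn are shown here. They are the 250 bases before the start of the gene in RefSeq on GRCh38.p14, 5′ to 3′. That start can differ from the GENCODE 29 start used for gene positions elsewhere, and for BPIFB2, STATH, HTN1 and LCN1 the window runs past the GENCODE start. BPIFB2 (high in both gland-rich libraries), BPIFA1 and LCN1 (both high in control 1) each carry TATAAA, in capitals, with its first base 30 bases before the start.
BPIFB2 chr20:33007454-33007703 (+ strand): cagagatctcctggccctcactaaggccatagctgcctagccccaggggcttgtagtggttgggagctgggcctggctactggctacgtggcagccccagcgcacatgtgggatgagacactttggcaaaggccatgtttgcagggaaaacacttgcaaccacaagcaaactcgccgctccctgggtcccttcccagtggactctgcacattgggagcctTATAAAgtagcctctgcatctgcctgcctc
BPIFA1 chr20:33235746-33235995 (+ strand): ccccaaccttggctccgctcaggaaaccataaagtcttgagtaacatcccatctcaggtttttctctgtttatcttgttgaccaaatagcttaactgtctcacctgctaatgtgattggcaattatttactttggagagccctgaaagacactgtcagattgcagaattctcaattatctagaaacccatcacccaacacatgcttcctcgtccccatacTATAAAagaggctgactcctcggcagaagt
LCN1 chr9:135521190-135521439 (+ strand): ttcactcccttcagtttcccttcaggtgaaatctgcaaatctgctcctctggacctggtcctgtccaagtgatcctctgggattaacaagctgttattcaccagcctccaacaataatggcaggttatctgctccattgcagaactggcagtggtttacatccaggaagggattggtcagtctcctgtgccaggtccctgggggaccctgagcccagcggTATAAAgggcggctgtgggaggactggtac
STATH and HTN1 lie in a cluster of saliva protein genes on chromosome 4 and were both high in knockdown 2. Capitals mark runs of 12 or more bases that the pair shares, 86 bases in each, and in a global alignment 80.7% of columns were identical. The upstream sequence of HTN3 matched that of HTN1 in 81.5% of columns and that of STATH in 70.5%. HTN3 stood at just 2.58 CPM in knockdown 2. Whether these sequences bear on the levels was not tested.
STATH chr4:69995716-69995965 (+ strand): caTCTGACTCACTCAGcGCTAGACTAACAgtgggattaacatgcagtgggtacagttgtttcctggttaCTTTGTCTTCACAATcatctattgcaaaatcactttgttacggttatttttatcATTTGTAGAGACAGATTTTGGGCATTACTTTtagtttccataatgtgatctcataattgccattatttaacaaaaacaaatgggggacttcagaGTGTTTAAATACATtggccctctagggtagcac
HTN1 chr4:70050188-70050437 (+ strand): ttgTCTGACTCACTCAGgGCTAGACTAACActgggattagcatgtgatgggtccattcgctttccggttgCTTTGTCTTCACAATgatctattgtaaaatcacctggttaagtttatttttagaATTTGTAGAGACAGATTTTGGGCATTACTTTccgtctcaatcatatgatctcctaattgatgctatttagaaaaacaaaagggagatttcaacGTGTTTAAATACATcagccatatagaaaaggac
Of the 27305 RefSeq promoters (250 bases before to 50 after the start), 2.41% had TATAAA on the gene's strand with its first base 25 to 35 bases before the start. Of the 162 genes described next as at least 4-fold higher in both gland-rich libraries, 100 had a promoter in the table, and 9 of those held TATAAA in that window. The letters CATATG, bound by the secretory cell factor BHLHA15, were in 3.05% of all promoters and in 2 of the 100, and the letters CAGCTG were in 17.7% and in 23 of the 100. Both are palindromes, so either strand reads the same. A match describes letters only and shows no binding.

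In both gland-rich libraries, 162 of 12474 genes (1.3%) stood at least 4-fold above the highest of the other 6 libraries, and 190 (1.52%) stood at least 4-fold below the lowest. At any fold, 793 (6.36%) lay above all other libraries and 1860 (14.9%) below them. Of the 162 higher genes, 32 were in the 3 gland lists, 54 in those or in the related lists for ducts, fluid secretion, transcription factors, protein export and plasma cells, and 101 in no list. None were squamous genes, while 14 of the 190 lower genes were. In the gland lists 62 of 74 genes reached 10 CPM in some library, and since members could pass through their gland-rich level alone, no more is read from the 32. The same limit holds for the counts of the related lists given below, some of whose genes are in several lists.

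Several serous products were abundant in both gland-rich libraries. LYZ, which encodes the antibacterial enzyme lysozyme (chr12:69348341-69354234), stood at 14122 CPM in knockdown 2 and 9060 CPM in control 1, against 22.3, 36.6 and 95.1 CPM as the lowest, median and highest of the other 6. LTF, the iron-binding protein lactoferrin, stood at 3902 and 5422 CPM, against 0.384 to 6.38 CPM. LPO, lactoperoxidase, stood at 633 and 224 CPM, against at most 0.0332 CPM. All 3 are antimicrobial proteins of saliva. About 34.0% of LYZ's exon length is shared with an overlapping gene, AC020656.1, so some of its reads may belong there.

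PIGR, the receptor that carries IgA across the duct epithelium (chr1:206928518-206946466), stood at 11004 CPM in knockdown 2 and 7707 CPM in control 1, against 0.062, 0.299 and 3.25 CPM in the others. BPIFB2, of a family of lipid-binding secreted proteins (chr20:33007600-33023709), stood at 13618 and 2296 CPM, against at most 0.0384 CPM. PIP, prolactin-induced protein, stood at 2246 and 194 CPM, against at most 0.062 CPM. SCGB3A1, a small secretoglobin, had no count in any of the other 6 and stood at 261 and 135 CPM. These genes were abundant in both gland-rich libraries and near absent elsewhere.

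Some transcription factors of secretory cells were also higher in both gland-rich libraries, while most genes of the protein export machinery were not. XBP1, a transcription factor that expands the endoplasmic reticulum, stood at 1723 and 718 CPM, against 53.2, 70.6 and 120 CPM. BHLHA15, which organises secretory granules, stood at 116 and 52.4 CPM, against 0.411 to 1.05 CPM. SOX10, a factor of acinar and glial cells, stood at 68.8 and 86.5 CPM, against 0.308 to 3.41 CPM. Of 24 gland transcription factors these and 4 others (SPDEF, ELF5, FOXI1 and ETV1) were at least 4-fold above all other libraries in both, against 1.3% of all genes. Some passed 10 CPM through their gland-rich level alone, so no more is read from that count. Of 44 genes for folding and export in the endoplasmic reticulum XBP1 alone was, near the 1.3% of all genes, and the list took 1.17% of counts in knockdown 2 and 0.509% in control 1, against 0.319% to 0.692% in the others.

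Fluid transport genes gave 5 of 22 members at that threshold, against the same 1.3% of all genes and with the same limit. SLC12A2, the chloride importer of acinar cells, stood at 1476 and 1144 CPM, against 23.3, 30.5 and 43.0 CPM. AQP5, their water channel, stood at 438 and 78.0 CPM, against at most 2.72 CPM. The potassium channel KCNN4 and the muscarinic receptors CHRM1 and CHRM3, through which nerves trigger secretion, were the others. Of 24 duct genes 5 passed, to be read against the same share, among them KRT7, a keratin of simple epithelium, at 476 and 292 CPM against 0.631 to 65.4 CPM. At any fold, 9 of the 18 duct genes at 10 CPM lay above all other libraries in both, and 0 below. The rest did not stand apart in both. KRT19 stood at 440 and 163 CPM against 4.8 to 652 CPM. The sodium channel gene SCNN1G stood at 14.3 and 0.0272 CPM against 2.61 to 38.4 CPM.

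Of 21 plasma cell and IgA genes, 9 were at least 4-fold above all other libraries in both, against 1.3% of all genes. Some passed 10 CPM through their gland-rich level alone, and PIGR is counted both here and among the duct genes, so no more is read from that count. Between knockdown 2 and control 1, 13 of the 13 at 10 CPM were within 4-fold, but so were 9521 of 10217 genes in all, so nothing is read from that. IGHA1, the constant region of the IgA heavy chain, stood at 867 and 2072 CPM, against 0.75, 6.38 and 52.7 CPM. JCHAIN, which joins IgA into dimers, stood at 188 and 275 CPM, against at most 15.1 CPM. CCL28, a chemokine for IgA plasma cells made by gland epithelium, stood at 322 and 183 CPM, against at most 21.6 CPM. SDC1, which marks plasma cells but also squamous epithelium, went the other way, at 63.1 and 37.4 CPM against 254 to 1665 CPM. PRDM1 stood at 13.8 and 5.44 CPM, against 10.6 to 129 CPM. Immunoglobulin RNA was not particular to the gland-rich libraries. In knockdown 3 IGHG1 stood at 299 CPM, above its 136 and 85.7 CPM in knockdown 2 and control 1. IGKC stood at 196 CPM in knockdown 3, against 541 and 952 CPM in knockdown 2 and control 1.

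**Figure D3:**
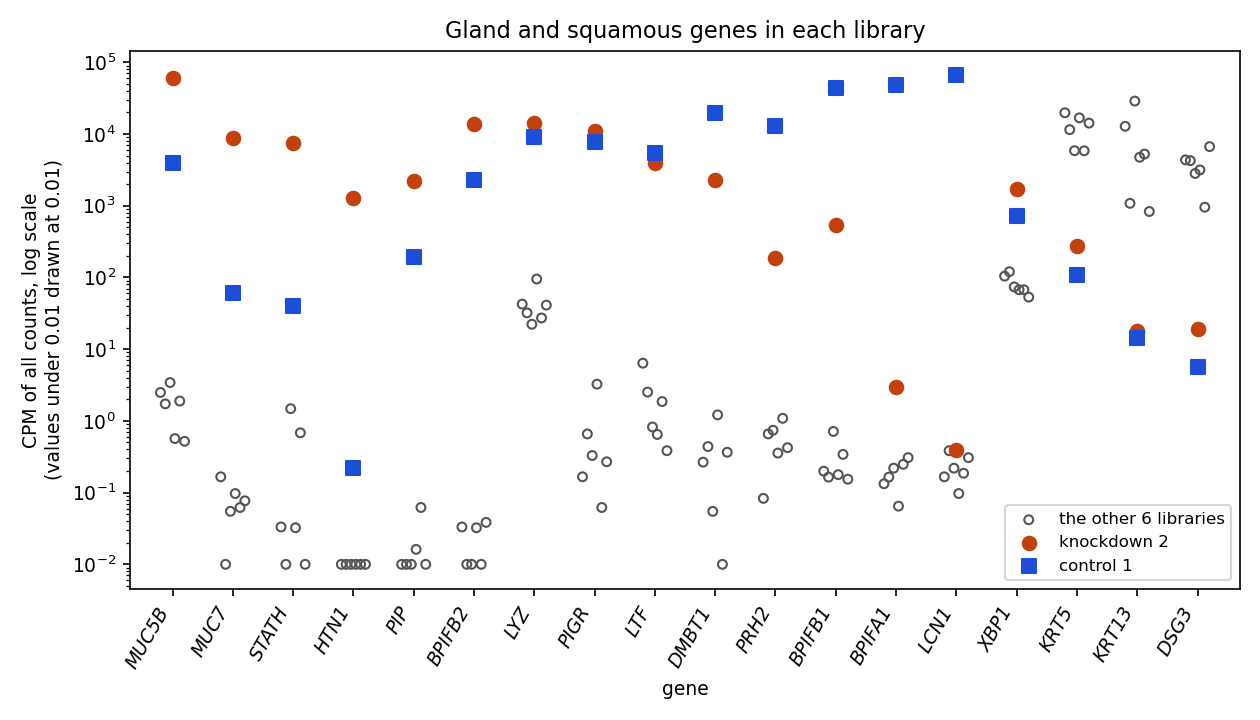
CPM of 18 genes in each library on a log axis, with knockdown 2 as filled circles, control 1 as filled squares and the other 6 libraries as open circles (values under 0.01 are drawn at 0.01). For LYZ, PIGR and LTF the gland-rich libraries lie together, for LCN1 and HTN1 only 1 of them stands out, and for KRT5, KRT13 and DSG3 both lie below the rest.

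The squamous genes ran the other way, against the label of a squamous line. The list of 27 took 0.156% of counts in knockdown 2 and 0.0627% in control 1, against 2.26%, 10.0% and 21.0% as the lowest, median and highest of the other 6. KRT5, the basal keratin, stood at 274 and 109 CPM, against 5833, 12844 and 19772 CPM. KRT13, a keratin of moist oral lining, stood at 17.7 and 14.5 CPM, against 830, 4998 and 28768 CPM. Of the 26 members at 10 CPM in some library, 14 lay at least 4-fold below the lowest other library in both, against 1.52% of all genes. Members could pass through their level in the other 6 alone, so no more is read from that count. The 14 included DSG3 (a desmosomal cadherin), IVL (involucrin) and TP63, the master factor of squamous epithelium, at 34.8 and 22.5 CPM against 229 to 644 CPM.

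Genes with the strongest drop outside that list included FAM83C, at 0.196 and 0.136 CPM against 25.6 to 191 CPM, and GBP6, at 2.25 and 1.09 CPM against 209 to 1602 CPM. CERS3, a ceramide synthase of the skin barrier, stood at 0.782 and 0.544 CPM against 53.1 to 245 CPM. A2ML1, a protease inhibitor of keratinised epithelium, stood at 1.79 and 2.12 CPM against 105 to 4901 CPM. Proliferation genes took 0.0119% and 0.00837% of counts against 0.0123% to 0.0783%, with MKI67 at 4.37 and 1.36 CPM against 12.7 to 139 CPM. Whether these libraries hold RNA of HSC3 cells was not tested.

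The gland-rich libraries also differed from each other. Of 10217 genes at 10 CPM or more in either, 254 (2.49%) were at least 4-fold higher in control 1 and 442 (4.33%) in knockdown 2. This split depends on scaling. With trimmed-mean (TMM) scaling the counts were 372 and 283, and the share higher in control 1 went from 36.5% to 56.8%. The median log2 ratio of control 1 to knockdown 2 over all these genes was -0.49 unscaled and -0.09 with TMM. Over the gland lists it was -2.88 and -2.61, with genes at 0 entered at 3 counts, and 33 of their 61 genes at 10 CPM were 4-fold higher in knockdown 2 and 8 in control 1 (32 and 8 of 60 with TMM).

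**Figure D4:**
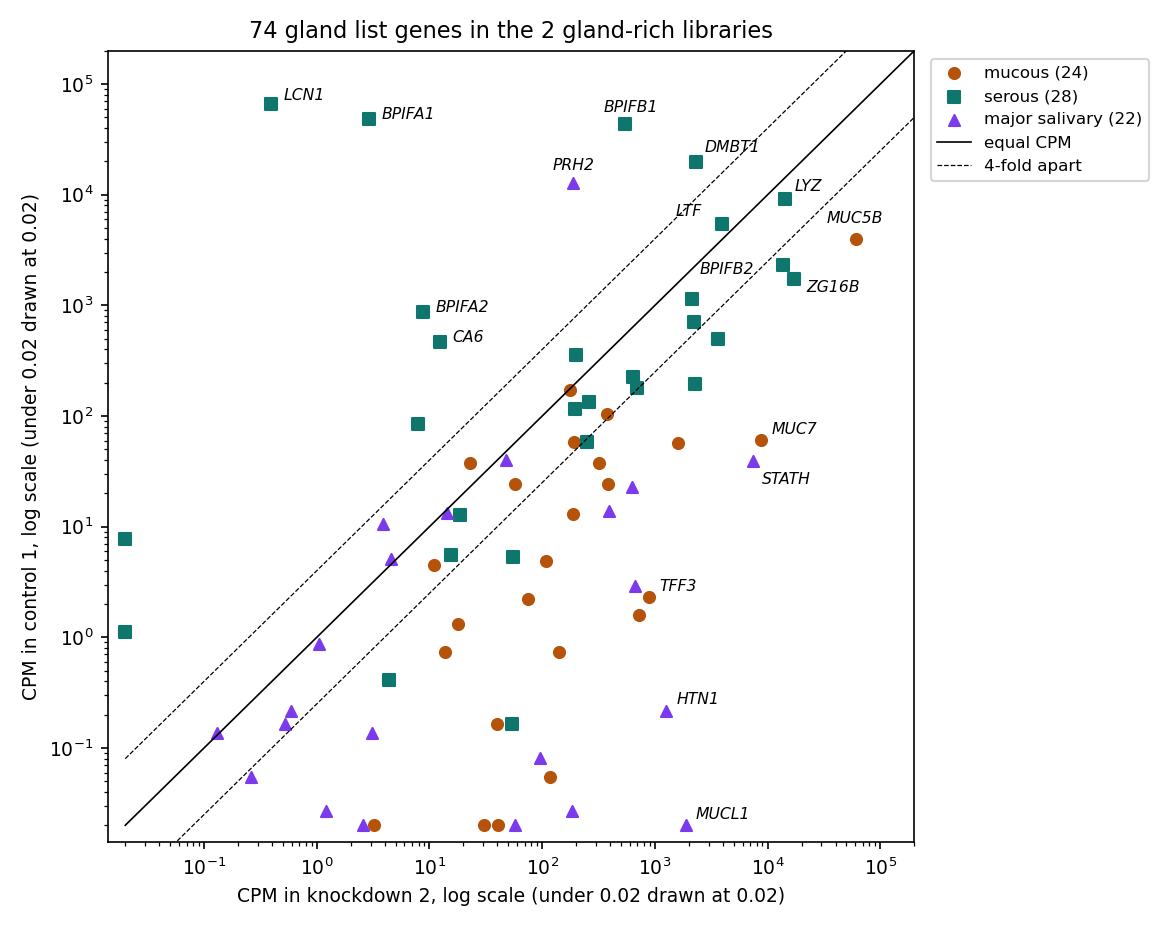
CPM of the 74 gland list genes in knockdown 2 (horizontal) and control 1 (vertical), both on log axes, with lines at equal values and at a 4-fold difference (values under 0.02 are drawn at 0.02). LCN1 and BPIFA1 lie at the upper left, far from the line, HTN1 and MUCL1 at the lower right, and LYZ and LTF close to it.

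Of 24 mucous genes, 17 were at least 4-fold higher in knockdown 2 and 0 in control 1, with either scaling. Over all genes the shares were 4.33% and 2.49%. The 17 include MUC5B, which chose the libraries, and some passed 10 CPM through knockdown 2 alone, so no more is read from that count. MUC5B itself (chr11:1223066-1262172) was 15.3-fold higher in knockdown 2. MUC7, the small soluble mucin of saliva, stood at 8781 CPM in knockdown 2 and 60.9 CPM in control 1, 144-fold apart, against at most 0.166 CPM in the others. AGR2, which folds mucins, stood at 1588 and 56.6 CPM, and TFF3, a trefoil peptide secreted with mucins, at 877 and 2.31 CPM. SPDEF, the factor that drives mucous differentiation, stood at 387 and 24.4 CPM against at most 0.682 CPM. In control 1 MUC5B, MUC7, AGR2 and SPDEF were far lower than in knockdown 2 and still above all other 6 libraries. For MUC5B the choice of libraries fixed this. Of the 23 mucous genes at 10 CPM in some library, 10 lay above the other 6 in both gland-rich libraries, against 6.36% of all genes. Some passed through their gland-rich level alone, so no more is read from the 10. Other members were not high in control 1. KLK11 stood at 0.734 CPM there, against 12.5 to 168 CPM in the other 6. MUC16 stood at 1.58 CPM there, against 0.731 to 7.85 CPM, and MUC19 and TFF1 had no count there.

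Genes typical of the major glands were split by gene. STATH, which keeps calcium in solution in saliva (chr4:69995930-70002570), stood at 7447 CPM in knockdown 2 and 39.5 CPM in control 1, 188-fold apart, against at most 1.48 CPM. HTN1, an antifungal histatin, stood at 1267 CPM in knockdown 2 and 0.217 CPM in control 1, and had no count in the other 6. PRR27, a neighbour in the same cluster and in no list, stood at 835 and 0.489 CPM, also with no count elsewhere. MUCL1, a small mucin-like secreted protein, stood at 1870 CPM in knockdown 2 with no count in control 1, at least 22934-fold higher against a limit of 3 counts, and at most 17.5 CPM elsewhere. The salivary cystatins CST1, CST2, CST4 and CST5, inhibitors of cysteine proteases, were at 671, 183, 389 and 96.2 CPM in knockdown 2 and at 2.94, 0.0272, 13.8 and 0.0816 CPM in control 1.

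PRH2, an acidic proline-rich protein that coats teeth (chr12:10929236-10932341), was the 1 gene of that list at least 4-fold higher in control 1. In knockdown 2, 9 genes of the list were so. Over all genes the shares were 2.49% and 4.33%. Some of the 9 passed 10 CPM through knockdown 2 alone, so no more is read from these counts. PRH2 stood at 189 CPM in knockdown 2 and 12840 CPM in control 1, 67.9-fold higher in control 1, against at most 1.09 CPM in the others. Of the amylases of parotid saliva, AMY1A, AMY1B and AMY1C were counted at under 0.6 CPM in every library. They are near-identical copies, and reads that fit several copies may have been dropped in counting, so this does not show that their RNA was absent. HTN3, the other histatin, stood at 2.58 CPM in knockdown 2 and had no count in control 1. Reads of close relatives (the PRB and PRH genes, the histatins and the cystatins) could be assigned to either copy, so their separate levels are uncertain.

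Of the 28 serous genes 25 reached 10 CPM in either gland-rich library. Of those, 7 were at least 4-fold higher in control 1 and 7 in knockdown 2 (7 and 6 with TMM). Over all genes the shares were 2.49% and 4.33%. Some members passed 10 CPM through 1 library alone, so no more is read from these counts. The larger serous share in control 1 lay mostly in LCN1, BPIFA1, BPIFB1 and DMBT1. LCN1, a lipid-binding protein of tears and of von Ebner glands (chr9:135521438-135526532), stood at 66024 CPM in control 1 and at 0.391 CPM in knockdown 2, 168826-fold apart, against 0.0971, 0.203 and 0.384 CPM in the other 6. For this gene knockdown 2, with 12 counts, lay next to the highest of the other 6 libraries. LCN1 alone made up 30.2% of the gland list counts of control 1, as MUC5B made up 39.7% of those of knockdown 2.

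Neighbouring BPIF genes on chromosome 20 took different sides. BPIFA1, an antimicrobial surface protein of the upper airway (chr20:33235995-33243311), stood at 48161 CPM in control 1 and 2.93 CPM in knockdown 2, against 0.0647 to 0.308 CPM. BPIFB1 (chr20:33273480-33309878) stood at 43432 and 538 CPM, and BPIFA2, the parotid secretory protein (chr20:33161768-33181412), at 865 and 8.73 CPM. BPIFB2, at the other end of the cluster, was 5.93-fold higher in knockdown 2. All 4 were above the other 6 libraries in both gland-rich libraries, as were 6.36% of all genes. They were named for high levels in these libraries, so nothing is read from that.

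DMBT1, a scavenger glycoprotein of saliva that clumps bacteria (chr10:122560665-122643736), stood at 19651 CPM in control 1 and 2303 CPM in knockdown 2, 8.53-fold apart, against 0, 0.316 and 1.21 CPM. CA6, the secreted carbonic anhydrase, stood at 467 and 12.4 CPM, 37.5-fold higher in control 1. Among factors, PAX1 stood at 82.9 CPM in control 1 with no count in knockdown 2 and up to 9.24 CPM elsewhere, and NKX2-3, a homeobox factor, at 10.6 and 0.261 CPM. The forkhead factor FOXA1 was higher in knockdown 2, at 97.8 against 3.21 CPM in control 1. Of the 20 gland transcription factors at 10 CPM in either library, 14 were within 4-fold, 1 was higher in control 1 and 5 in knockdown 2 (2 and 4 with TMM). Of all 10217 genes 9521 were within 4-fold, 2.49% were higher in control 1 and 4.33% in knockdown 2. Some factors passed 10 CPM through 1 library alone, so no more is read from these counts.

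Per kilobase of exon, which allows genes to be ranked against each other, the gland genes ranked differently in each library. In knockdown 2 the highest were LYZ at 8005, BPIFB2 at 7175, ZG16B at 6458 and PIP at 3839 CPM per kilobase, and MUC5B, whose exons are 18.6 kilobases long, ranked 7 at 3239. In control 1 they were LCN1 at 84538, BPIFA1 at 44552, PRH2 at 16962 and BPIFB1 at 14006 CPM per kilobase. LYZ ranked 5 there at 5136.

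Markers of other tissues also moved. Skeletal muscle genes took 4.07% of counts in knockdown 2 and 16.3% in control 1. Of 29 such genes 22 were at least 4-fold higher in control 1 (27 with TMM), against 2.49% of all genes (372 of 10176 with TMM). Muscle was not particular to gland-rich libraries, since the other 6 ran from 0.00778% to 16.0%, with 16.0% in control 3. The myoepithelial and smooth muscle list took 0.494% and 0.781% of counts, below the 1.16% to 6.18% of the others. Of its 17 members 3 were at least 4-fold above all other libraries in both and 2 at least 4-fold below, against 1.3% and 1.52% of all genes. Smooth muscle MYH11 stood at 792 and 735 CPM, against 4.04 to 53.4 CPM, while the keratins KRT5 and KRT14 and the factor TP63, also squamous genes, lay below all other libraries. The part of muscle RNA in the differences between the gland-rich libraries was not tested. Of 21 genes that mark other glands, 3 reached 10 CPM, and all 3 did so in knockdown 2 alone. All 3 were at least 4-fold above all other libraries in both gland-rich ones, against 1.3% of all genes. Since they passed through their gland-rich level, nothing is read from that. They were the secretoglobins SCGB2A2, at 309 and 6.63 CPM, SCGB1D2, at 21.6 and 6.03 CPM, and SCGB2A1, at 11.3 and 3.75 CPM. SCGB1A1 of the airway had no count in either library, LACRT of the tear gland stood at 4.24 CPM in knockdown 2 and had none in control 1, and the taste cell G protein GNAT3 had no count in either.

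The rule placed 1 gland-rich library under each label. The gland list share was 3.89% ± 7.52 under the knockdown label and 5.50% ± 10.9 under the control label (SD, n = 4 each), a difference of -1.60 percentage points that is far smaller than the spread within a label. No test is given, since this share includes MUC5B, which chose the libraries. Between the labels edgeR's quasi-likelihood test called 0 of 21192 genes (0%) at a Benjamini-Hochberg adjusted p under 0.05, with 1013 at an unadjusted p under 0.05, while DESeq2 called 146 of 28237 (0.517%). Of the 74 gland genes 39 passed edgeR's filter on low counts and 0 were called, and DESeq2 called 0 of the 20 to which it gave an adjusted p (it gave none to MUC5B, LYZ and DMBT1).

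The fitted fold changes of gland genes followed the 2 libraries. The log2 fold change of MUC5B, knockdown over control, was 3.56 (SE 3.68), but -8.65 without knockdown 2 and 13.93 without control 1. For LYZ it was 0.26 (SE 2.40), -6.12 and 6.01, and for DMBT1 -3.47 (SE 3.89), -14.13 and 10.02. No p-value is given for these 3 genes, since MUC5B chose the gland-rich libraries and LYZ and DMBT1 are the rule's other markers. Without both libraries the 3 values were 1.71, -0.37 and -0.63, and edgeR called 1 gene, SPRR2F (adjusted p = 0.00857). This cornified envelope gene, with close paralogs that could share its reads, was also called without knockdown 2 alone (edgeR adjusted p = 0.0332) and is named because it was the only call. COL1A1 had a log2 fold change of -2.97 (SE 1.30, edgeR adjusted p = 0.981), -3.11 without both gland-rich libraries and -0.48 without control 2.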

How the data were processed

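RNA of 8 libraries was measured by RNA-seq. The authors deposited whole-number read counts per gene without normalisation. Per the submitters' processing notes, STAR, featureCounts of Subread and hg38 were used, and strand setting, annotation and versions were not given in the sources used here. Reads of overlapping antisense genes therefore cannot be told apart. A symbol was matched to 42338 of 63241 rows by Ensembl identifier. Treated columns are named KO in the table and KD in the titles, and were matched by group and number. The labels name polyA RNA, while their extraction protocol describes ribosomal RNA depletion.

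CPM is a count over all counts of its library (30684584 to 61795990). The gland-rich libraries, the 19 gene lists and the genes named were chosen with earlier results of these data known. Genes were compared at 10 CPM or more and a 4-fold difference, with a floor of 3 counts, and with no test. Named genes were the rule's markers and target, the 4 (gland lists) or 2 (other lists) most abundant members of each list, the 15 highest over the other 6, the 8 most unequal between the gland-rich libraries in each direction, the 8 standing out in each, and the 8 lowest. A few further list members were named after their values were seen. Labels were compared with edgeR 4.0.16 (quasi-likelihood, TMM, filterByExpr), which was tested on simulated data, and DESeq2 1.42.0, in R 4.3.3. The exact permutation test planned for the gland share is not reported, since the share includes MUC5B, which chose the libraries. Exon lengths and gene coordinates are from GENCODE 29 on GRCh38. Alternatives were other scalings, filters and folds, a gland share covariate, a replicate block and leaving libraries out.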

Additional observations from a re-analysis of the deposited data

Results flagged for a closer look

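In each label's 4 libraries a highest or lowest value was looked for whose gap to the nearest of the other 3 exceeds Dixon's 95% limit. Of 48 such checks 24 did so, and 21 of them were in knockdown 2 or control 1, which were chosen for MUC5B. The checks overlap and include MUC5B and the rule's other markers, so no chance rate is set beside them. The 21 are descriptions of the choice and not evidence for it.

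In knockdown 2 the highest values were the shares of the gland lists together (15.2%), mucous (7.45%), serous (6.43%), major salivary (1.29%), duct (1.47%), gland transcription factor (0.617%), plasma cell and IgA (1.38%) and other gland genes (0.0352%). MUC5B at 60244 CPM, LYZ at 14122 CPM and DMBT1 at 2303 CPM also stood apart there. In control 1 the same held for the gland lists together (21.8%), mucous (0.456%), serous (20.1%), major salivary (1.30%), duct (0.921%), plasma cell and IgA (1.23%) and other gland genes (0.00235%), and for MUC5B at 3948 CPM, LYZ at 9060 CPM and DMBT1 at 19651 CPM. In both libraries the duct share and the plasma cell and IgA share were mostly counts of PIGR, which is in both lists.

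Outside these libraries, the fibroblast list stood apart at 0.0928% of counts in knockdown 3, the lowest of its label, and at 2.89% in control 2, the highest of its label. COL1A1 stood apart at 8183 CPM in control 2.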

How the results depend on the processing

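The fit of all 8 libraries called no gland list gene between the labels, and DESeq2 tested only 20 of the 74. The count of called genes was 0 with other size factors, without the filter on low counts and with a replicate block, 146 with DESeq2, 1 with the gland share as a covariate (SPRR2B, edgeR adjusted p = 0.022) and 1 without both gland-rich libraries, and 0 to 1 with each library left out. Same-numbered libraries deviated from their label means with correlations of -0.66, -0.48, -0.37 and -0.40. The gland-rich libraries carry different numbers and enter these values, so the correlations cannot show whether libraries were paired. The log2 fold change of MUC5B went from 3.56 to -0.027 with the covariate, and its range was -8.65 to 13.93 when single libraries were omitted. That of LYZ went from 0.26 to -1.17 with the covariate and -0.37 without both gland-rich libraries, and from -6.12 to 6.01 with each left out (-0.15 without control 2, control 3 or control 4). That of DMBT1 went from -3.47 to 0.80 with the replicate block, and from -14.13 to 10.02 with each left out. The difference in gland share went from -1.60 percentage points to 0.95 on a log2 scale and ran from -5.36 to 3.84 with each library left out (3.84 without control 1). The cause of these changes was not tested.

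Genes higher and lower in both gland-rich libraries numbered 292 and 434 at 2-fold and 92 and 81 at 10-fold. At a minimum of 1 CPM 273 were higher. With each library left out, 167 to 341 were higher (341 without control 1) and 191 to 413 lower (413 without knockdown 2), where leaving out a gland-rich library leaves 1 to pass. Genes higher in control 1 or in knockdown 2 numbered 624 and 2298 at 2-fold, 49 and 162 at 10-fold, and 534 and 1355 at a minimum of 1 CPM. With TMM scaling 283 were higher in knockdown 2. Depth limits values under 0.1 CPM, which rest on a few reads.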
